A study of Mus musculus with 6 samples.

Results

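The CART, PACAP, tachykinin and cholecystokinin peptide systems were examined in adult mouse midbrain, in ribosome-bound RNA of the cells that carry an Lhx5-driven tag. They comprise 10 genes, taken by symbol from the 32531 gene entries of the count files: the peptide precursor genes Cartpt, Adcyap1, Vip, Tac1 and Cck, and the receptor genes Adcyap1r1, Vipr2, Tacr1, Tacr3 and Cckbr. The genes were chosen by family, as peptide genes prominent in ventral midbrain and mammillary neurons with their receptors, and the choice was made with IP and Input levels of these libraries already known. Their values are therefore given as a description, and no p-value is given for any of the 10. The samples were 3 libraries of RNA immunopurified (IP) from untreated mice of the line Lhx5-EGFP-Rpl10a DT154 and 3 libraries titled Input from the same line. Every mouse carried the transgene, in which regulatory sequences of Lhx5, a LIM homeodomain factor, drive EGFP fused to the ribosomal protein Rpl10a. Antibodies against EGFP then pull down the polysomes of the cells that make the tag, a method known as translating ribosome affinity purification (TRAP). Another label on the Input libraries reads unbound, and whether they hold RNA of the full homogenate or of the fraction left after the pull-down is not stated. The labels name no sex or exact age and leave unsaid whether each replicate was its own mouse or a pool. The p-values printed here for other genes thus set the difference between IP and Input against the variation among these libraries, and that variation may be technical alone.

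Neuropeptides are cut from larger precursors inside dense-core vesicles, released from them during strong firing, and sensed by G protein-coupled receptors. CART, the product of Cartpt, acts on feeding and stress and is made in the Edinger-Westphal nucleus and the hypothalamus. PACAP, from Adcyap1, and VIP, from Vip, are related peptides of the secretin family that raise cyclic AMP through shared receptors, among them the products of Adcyap1r1 and Vipr2. Tac1 encodes substance P and neurokinin A, which act chiefly on the products of Tacr1 and Tacr2, while Tacr3 encodes the receptor preferred by neurokinin B, the product of Tac2. Cholecystokinin, from Cck, is abundant in cortex and in many midbrain dopamine neurons, and its main receptor in brain is the product of Cckbr.

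Precursor genes of this kind are known targets of cyclic AMP signalling through CREB, which binds the cyclic AMP response element. The 250 bases before each RefSeq start site (GRCm38.p6) were searched on both strands for 7 letters of that element, TGACGTC, and for its shorter core TGACG, which the longer motif contains. All 10 genes had an entry, and of the windows of Adcyap1 the one at its most upstream start was used. TGACGTC was present in 3 of 5 precursor genes and in 1 of 5 receptor genes, and in 2.78% of all 32851 such windows. The core TGACG was present in 5 of 5 precursor genes and 2 of 5 receptor genes, and in 17.8% of all windows. TATAAA was found for 1 precursor and 1 receptor gene, against 12.4% of windows. TGANTCA, an AP-1 motif, was found for 0 of the 10 genes, against 6.75% of windows. The 30 bases around the match nearest the start site are given on the gene's strand, 5′ to 3′, for the 5 precursor genes and for Tacr3, with the match in capitals, because a shared element of this kind could be read beside the levels of the genes.
Cartpt: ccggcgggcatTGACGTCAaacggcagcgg
Adcyap1: ggactaggatgcTGACGTCttttactgata
Vip: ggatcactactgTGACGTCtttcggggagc
Tac1: ggctctacaggctCGTCAcgcctgagataa
Cck: tcctgctggactgCGTCAgcactgggtaaa
Tacr3: cttgcaacccgcGACGTCAcggaagctggg

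These stretches lie at chr13:99900777-99900806 (minus strand) for Cartpt, chr17:93198914-93198943 (plus) for Adcyap1, chr10:5639127-5639156 (plus) for Vip, chr6:7555005-7555034 (plus) for Tac1, chr9:121495725-121495754 (minus) for Cck and chr3:134828935-134828964 (plus) for Tacr3. Cartpt matched on both strands, 112 to 105 bases before its start, and Adcyap1 matched 91 to 85 and Vip 79 to 73 bases before theirs. The Cartpt and Tac1 stretches fall inside an exon of a longer GENCODE transcript. Of the genes with TGACGTC, Cartpt and Adcyap1 were higher in IP, Vip was lower and Tacr3 did not pass, as given below. Of those with the core alone, Tac1 was higher, while Cck and Tacr1 did not pass. Whether the motif bears on these levels was not tested.

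Gene totals were 38058239 to 45841499 counts per library, and 3 counts, the lowest level read as detected, equal 0.0688 to 0.0741 CPM, the unit used here for counts scaled to library size by TMM. Lhx5 itself had 50.7 ± 4.81 CPM in IP and 3.31 ± 0.963 CPM in Input (SD, n = 3 each), which is the direction the label gives. Whether RNA from the transgene adds to the Lhx5 count was not tested. Markers of the tissue and its neighbours were summed per library. The 5 mammillary markers (Foxb1, Sim1, Nkx2-1, Lmx1b, Nos1) summed to 129 to 270.2 CPM in IP and 19.5 to 37.4 CPM in Input, and 4 of them rose, while Lmx1b was too low to test. The 6 dopamine neuron markers, which define ventral midbrain, summed to 54.3 to 76.4 CPM in IP and 152 to 437 CPM in Input, and 5 of them fell. Input replicate 3 was the lowest Input library in these. It was the highest in striatal markers, with 934 CPM against 223 and 97.3 CPM in Input replicates 1 and 2. In choroid plexus markers it was also the highest (1308 against 354 and 14.4 CPM). It was the lowest in hindbrain and serotonin markers (0.642 against 32.5 and 19.8 CPM). The same held for markers of midbrain GABA neurons and tectum (27.0 against 64.7 and 60.3 CPM). IP replicate 2 held 1008 CPM of 4 Purkinje cell markers, against 127 and 95.9 CPM in IP replicates 1 and 3. Astrocyte markers summed to 23.5 to 28.4 CPM in IP and 207 to 299 CPM in Input. No marker list but that of the suprachiasmatic nucleus had a gene at 0 in every IP library, which was Six6.

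**Figure D1:**
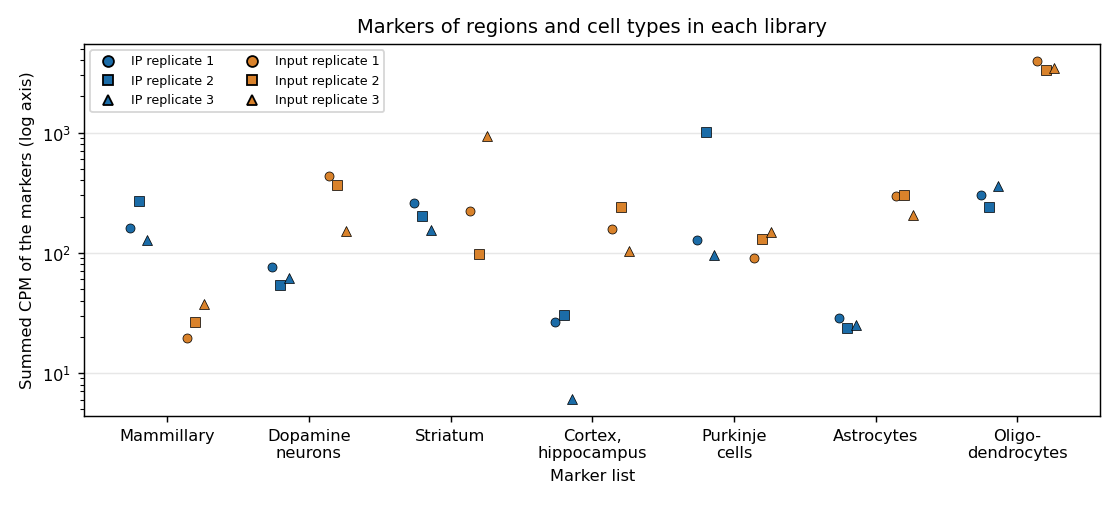
Summed CPM (log axis) of the markers of 7 regions or cell types in each library, with IP in blue left of Input in orange and 1 symbol per replicate. The mammillary markers are higher in all IP libraries, Input replicate 3 stands apart in striatal markers (934 CPM) and IP replicate 2 in Purkinje cell markers (1008 CPM).

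Among the precursor genes, Cartpt and Adcyap1 stood about as far above Input as each other. Cartpt (ENSMUSG00000021647.7, chromosome 13 from 99898489 to 99901091) had 290.4, 275 and 222 CPM in IP replicates 1, 2 and 3, against 60.5, 43.5 and 21.6 CPM in the Input replicates. The groups did not overlap, and the lowest IP library held more than 3 times the highest Input library. The means were 262 ± 35.7 CPM in IP and 41.9 ± 19.5 CPM in Input (SD, n = 3 each), a ratio of 6.27. The fitted log2 fold change of Cartpt was 2.65 (SE 0.33), and between same-numbered libraries the log2 ratio was 2.26, 2.66 and 3.37.

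Adcyap1, the PACAP gene (ENSMUSG00000024256.7, chromosome 17 from 93199017 to 93206537), had 241, 269.9 and 112 CPM in IP, against 41.9, 38.2 and 23.9 CPM in Input. All IP libraries lay above all Input libraries, and replicate 3 was lowest in both groups. Adcyap1 averaged 208 ± 84.0 CPM in IP and 34.7 ± 9.48 CPM in Input (SD, n = 3 each), with a log2 fold change of 2.58 (SE 0.34). Leaving out any 1 library gave 2.31 to 3.01 for Cartpt and 2.32 to 2.89 for Adcyap1. Without both IP replicate 2 and Input replicate 3, the libraries richest in Purkinje and striatal markers, they stood at 2.25 and 2.10. Markers of the mammillary region rose in the same libraries, and their part in these values was not tested. Of the Edinger-Westphal markers, Ucn, which encodes urocortin, had 3.94, 2.15 and 2.38 CPM in IP, against 1.15, 0.711 and 0.0247 CPM in Input, and did not pass (edgeR adjusted p 0.0539). The other, Chat, which encodes the enzyme that makes acetylcholine, had 42, 20 and 61 counts in IP, against 126, 33 and 168 counts in Input, and was not called either (edgeR adjusted p 0.0861). Ucn and Chat went in opposite directions, with log2 fold changes of 2.16 and -1.44. Their sum, 2.64 to 4.95 CPM in IP and 1.47 to 4.18 CPM in Input, therefore describes neither gene. In bulk RNA of this kind, more tagged cells of a type and more RNA per cell cannot be told apart.

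Tac1, the substance P gene (ENSMUSG00000061762.12, chromosome 6 from 7554879 to 7565834), differed less. It had 127, 66.7 and 83.7 CPM in IP, against 47.6, 37.6 and 64.9 CPM in Input. The lowest IP library lay just above the highest Input library, which was replicate 3, the one high in striatal markers. The log2 fold change of Tac1 was 0.89 (SE 0.27). It was 1.09 without Input replicate 3, while it was 0.60 without IP replicate 1, 0.86 without Input replicate 1 and 0.73 without Input replicate 2, and in these it missed the threshold of an adjusted p of 0.05 that it passed with all libraries. Neurons of the striatum that carry Drd1 are known to make substance P, and Drd1 had 73.3 CPM in Input replicate 3 against 11.2 and 3.37 CPM in Input replicates 1 and 2. The part of that library's striatal RNA in the Tac1 level was not tested.

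Cck (ENSMUSG00000032532.7, chromosome 9 from 121489824 to 121495694) had 153, 189.9 and 90.5 CPM in IP, against 254, 229.7 and 136 CPM in Input. Each IP library was below the Input library of its own number, but the groups overlapped. The log2 fold change of Cck was -0.51 (SE 0.30) and did not pass the threshold. With the replicate number as a block it was -0.53 (SE 0.11) and passed, and without both IP replicate 2 and Input replicate 3 it was -1.03 and passed. Among cells known to make Cck, the summed markers of cortex and hippocampus were 6.02 to 30.3 CPM in IP and 104 to 238 CPM in Input, and those of dopamine neurons were lower in IP as given above. Their part in the Cck level was not tested.

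Vip (ENSMUSG00000019772.5, chromosome 10 from 5639218 to 5647617) was the least abundant of the 10 genes. It had 30, 27 and 39 counts in IP, which is 0.717, 0.659 and 0.910 CPM, against 109, 143 and 65 counts in Input, which is 2.62, 3.28 and 1.60 CPM. Every IP library was below every Input library. The log2 fold change of Vip was -1.71 (SE 0.39), with a range of -1.98 to -1.46 over fits that left out 1 library.

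**Figure D2:**
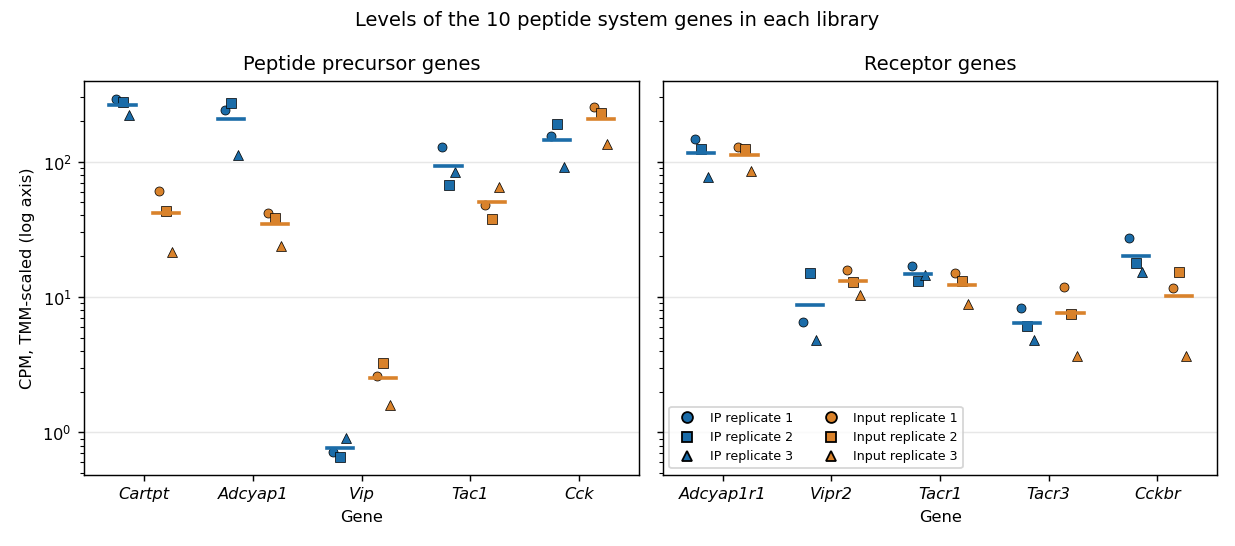
Level in CPM (log axis) of the 5 precursor genes (left) and the 5 receptor genes (right) in each library, IP in blue left of Input in orange, with 1 symbol per replicate and a bar at the mean of 3 libraries. Cartpt and Adcyap1 in IP are separated from Input by a wide gap (262 against 41.9 and 208 against 34.7 CPM), while Adcyap1r1, Vipr2, Tacr1 and Tacr3 overlap.

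The receptor genes showed smaller differences than Cartpt and Adcyap1, and Cckbr alone of the 5 passed with DESeq2, which it did not in the edgeR fit of all libraries. Adcyap1r1, the gene of the PACAP-preferring receptor PAC1 (chromosome 6 from 55451978 to 55501451), had 147, 123 and 77.5 CPM in IP, against 127, 125 and 84.8 CPM in Input. The groups overlapped throughout, and the log2 fold change of Adcyap1r1 was 0.05 (SE 0.24). Its sign changed with the scaling, to -0.11 with upper-quartile scaling. Astrocytes are known to express this gene too, and their markers fell in IP as given above. The part of astrocyte RNA in the Adcyap1r1 level was not tested. The number of Adcyap1 counts per Adcyap1r1 count in the same library, which no scaling alters, was 1.64, 2.20 and 1.45 in IP, against 0.328, 0.306 and 0.282 in Input.

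Vipr2, the gene of the receptor VPAC2 that binds both VIP and PACAP (chromosome 12 from 116077726 to 116146261), had 6.50, 14.9 and 4.81 CPM in IP, against 16.0, 12.9 and 10.3 CPM in Input. IP replicate 2, the library rich in Purkinje cell RNA, was more than 2 times as high as either other IP library. With it the log2 fold change of Vipr2 was -0.58 (SE 0.39), and without it the value was -1.24 (SE 0.27) and passed. The part of Purkinje cell RNA in that library's level was not tested.

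Tacr1, the gene of the neurokinin-1 receptor for substance P (chromosome 6 from 82402334 to 82560104), had 16.8, 13.2 and 14.6 CPM in IP, against 15.1, 13.1 and 8.84 CPM in Input. The groups overlapped, with a log2 fold change of 0.27 (SE 0.22). Tacr3, the gene of the neurokinin-3 receptor (chromosome 3 from 134829007 to 134934579), had 8.29, 6.06 and 4.78 CPM in IP, against 11.9, 7.43 and 3.65 CPM in Input. Its log2 fold change was -0.26 (SE 0.40), and 0.21 without Input replicate 1, so that its sign rested on that library. In both groups Tacr3 was highest in replicate 1 and lowest in replicate 3.

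Cckbr, the gene of the CCK-B receptor (chromosome 7 from 105425731 to 105470898), had 27.4, 17.8 and 15.4 CPM in IP, against 11.7, 15.2 and 3.68 CPM in Input. The groups did not overlap, though IP replicate 3 and Input replicate 2 were nearly level. The log2 fold change of Cckbr was 0.98 (SE 0.45) and did not pass. It was 1.15 (SE 0.35) with the replicate block, 0.95 with DESeq2 and 1.39 without Input replicate 2, and passed in these, while it was 0.56 without Input replicate 3. Cck and Cckbr thus lay on opposite sides of 0 in the fit of all libraries.

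All 10 genes passed the filter on low counts. By the rule used for all genes, an adjusted p under 0.05, 3 of the 10 were higher in IP (Cartpt, Adcyap1 and Tac1), against 26.0% of the 17197 genes tested, and 1 was lower (Vip), against 27.9%. The other 6 did not pass, and the members' median log2 fold change was 0.16, against -0.01 over all genes tested. Every IP library lay above every Input library for 4 of the 10 (Cartpt, Adcyap1, Tac1 and Cckbr), against 30.7% of all genes, and below for 1 (Vip), against 32.8%. Because the choice of genes used this contrast, nothing is read from these shares. Counts of members rest on few genes: the number lower was 2 with the replicate block (Vip and Cck), 2 without IP replicate 2 (Vip and Vipr2) and 3 without both IP replicate 2 and Input replicate 3. Upper-quartile scaling moved the median of all genes to -0.17 and the share of upward calls to 38.1%, against 48.2% with TMM, and left 3 members higher and 1 lower. The members' median was 0.0038 with that scaling, and -0.05 without Input replicate 3.

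**Figure D3:**
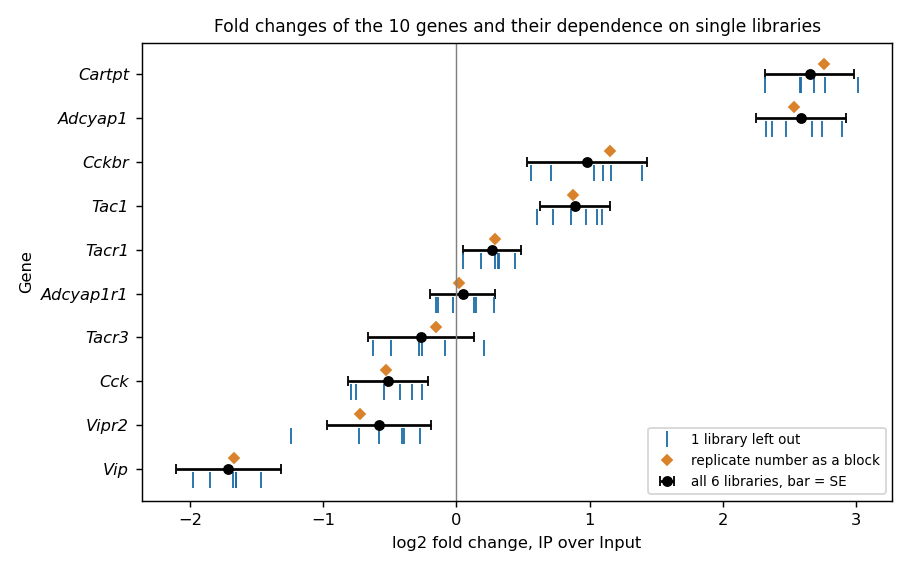
Log2 fold change, IP over Input, of the 10 genes with its SE (black), in fits that each leave out 1 library (blue ticks) and with the replicate number as a block (orange diamonds). Cartpt and Adcyap1 stay above 2 and Vip below -1 throughout, while Adcyap1r1 and Tacr3 fall on both sides of 0.

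Per kilobase of exon, a rough scale for setting levels of different genes side by side, the order of the genes differed between the groups. The length used counts the exons of all annotated transcripts of a gene, so the order within a group and the ranks depend on the annotation. In IP, Cartpt led with 206 ± 27.9 CPM per kb, followed by Cck with 111 ± 38.5, Adcyap1 with 55.0 ± 22.2, Tac1 with 27.3 ± 9.22 and Adcyap1r1 with 17.6 ± 5.38 (SD, n = 3 each). Cartpt and Cck did not overlap across the IP libraries, but Cck and Adcyap1, Adcyap1 and Tac1, and Tac1 and Adcyap1r1 did. In Input, Cck led with 158 ± 48.0 CPM per kb, followed by Cartpt with 32.8 ± 15.3, Adcyap1r1 with 17.0 ± 3.61, Tac1 with 14.7 ± 4.06 and Adcyap1 with 9.18 ± 2.51, and from Cartpt to Adcyap1 each neighbour overlapped the next. Among 15039 tested genes with an exon length, Cartpt ranked 142 in IP and 1032 in Input, Adcyap1 826 and 4110, and Cck 339 and 100. The other receptors were low on this scale. Cckbr had 7.06 ± 2.23 CPM per kb in IP and 3.57 ± 2.07 in Input, Tacr1, Vipr2 and Tacr3 had 2.29, 1.96 and 1.70 in IP and 1.90, 2.93 and 2.04 in Input, and Vip had 0.224 in IP and 0.735 in Input.

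The lead of Cartpt in IP and of Cck in Input was also visible within single libraries. In CPM, without division by length, Adcyap1 lay above Cck in every IP library (241, 269.9 and 112 against 153, 189.9 and 90.5 CPM). In Input replicate 3, Cartpt (21.6 CPM) lay below Tac1 (64.9 CPM) and Adcyap1 (23.9 CPM). Cartpt made up 35.7%, 34.3% and 43.6% of the summed CPM of the 5 precursor genes in IP replicates 1, 2 and 3, against 14.9%, 12.4% and 8.72% in the Input replicates. Cck made up 18.9%, 23.7% and 17.8% in IP, against 62.5%, 65.2% and 54.8% in Input. The number of Cartpt counts per Cck count was 1.89, 1.45 and 2.46 in IP, against 0.238, 0.190 and 0.159 in Input, with no overlap between the groups.

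Replicate 3 was the lowest library of its group, in IP and in Input alike, for 7 of the 10 genes: Cartpt, Adcyap1, Adcyap1r1, Vipr2, Tacr3, Cck and Cckbr. This was so for 15.4% of all genes tested, and for 13.7% and 13.5% with replicates 1 and 2. Genes that make and pack neuropeptides showed it as well, in 18 of 25. Scg2, secretogranin II of dense-core vesicles, had 219 CPM in IP replicate 3 against 628 and 547 CPM in IP replicates 1 and 2, and 143 CPM in Input replicate 3 against 305 and 275 CPM in Input replicates 1 and 2. Same-numbered libraries share a lane label, so lane, dissection and mouse cannot be told apart here. Region markers of Input replicate 3 differed from those of the other Input libraries, as given above, and their part in the pattern was not tested. Tac1, Tacr1 and Vip did not follow the pattern, with Tac1 highest of the Input libraries in replicate 3.

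**Figure D4:**
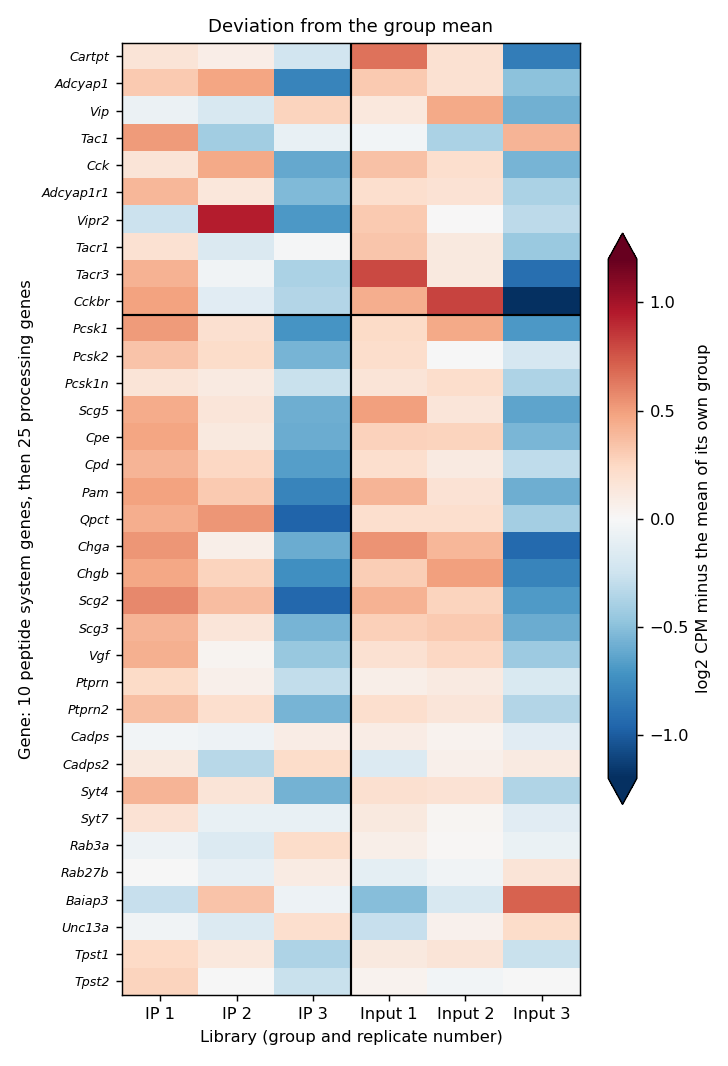
Log2 CPM of each gene in each library minus the mean of its own group, for the 10 genes (above the line) and the 25 peptide processing genes (below it), with IP libraries left of Input libraries. Blue marks a library below its group's mean: replicate 3 was lowest in both groups for 7 of the 10 genes and 18 of the 25.

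The machinery of peptide synthesis was followed through genes of precursor processing and vesicle release. Of 25 such genes, all tested, 8 rose and 2 fell, against 26.0% and 27.9% of all genes tested, so that the count higher was near the share of all genes. Their median log2 fold change was 0.49, against -0.01 over all genes. With upper-quartile scaling 6 rose and 2 fell, and the median was 0.34. Pcsk1n, which encodes proSAAS, an inhibitor of a prohormone convertase, had 416, 403 and 309.98 CPM in IP, against 139, 145 and 97.0 CPM in Input, and rose by 1.57 (SE 0.18, adjusted p 0.000252 by edgeR's quasi-likelihood test). Rab3a, a small GTPase of synaptic and dense-core vesicles, rose by 1.24 (SE 0.13, edgeR adjusted p 0.000133). Cadps, which primes dense-core vesicles for release, rose by 0.61 (SE 0.11), and Ptprn2, a receptor-like phosphatase of their membrane, by 0.78 (SE 0.24). Ptprn2 missed the threshold in 3 omissions, at 0.61 without IP replicate 1, 0.67 without IP replicate 2 and 0.61 without Input replicate 3. Cpd, a carboxypeptidase of the trans-Golgi, fell by 0.71 (SE 0.26), and Unc13a, a priming factor of synaptic vesicles, fell by 0.49 (SE 0.16). Cpd missed it at -0.83 without IP replicate 2, -0.43 without IP replicate 3, -0.60 without Input replicate 1 and -0.65 without Input replicate 2. Unc13a missed it at -0.46 without IP replicate 1, -0.45 without IP replicate 2, -0.47 without Input replicate 2 and -0.41 without Input replicate 3.

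Other enzymes of the pathway are named for their role, after their values were seen. Pam, which amidates the ends of substance P, cholecystokinin, PACAP and VIP, rose by 1.09 (SE 0.34). Each IP library was above the Input library of its own number for Pam. The groups overlapped, with 126 CPM in IP replicate 3 and 139 CPM in Input replicate 1. The convertase gene Pcsk1 had a log2 fold change of 0.39 (SE 0.36), the convertase gene Pcsk2 one of 0.36 (SE 0.22), and the carboxypeptidase gene Cpe one of 0.19 (SE 0.29), and none of these passed. The number of processing genes that passed was 10 with all libraries, 17 with the replicate block (15 higher and 2 lower), 6 without IP replicate 1, 5 without IP replicate 2 and 6 without Input replicate 2. It was 6 without both IP replicate 2 and Input replicate 3.

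Peptidases end the action of released neuropeptides. Of 15 tested, 4 rose and 3 fell, near the 26.0% and 27.9% of all genes tested. The median log2 fold change was 0.03, or -0.12 with upper-quartile scaling. Mme, which encodes neprilysin, an enzyme that cleaves substance P and other peptides, had 132, 106 and 93.8 CPM in IP, against 45.8, 37.1 and 55.3 CPM in Input, and rose by 1.26 (SE 0.18, edgeR adjusted p 0.000676). Its relative Mmel1 rose by 1.64 (SE 0.42), the endothelin-converting enzyme gene Ece2 by 1.04 (SE 0.26) and Ace, the angiotensin-converting enzyme gene, by 0.76 (SE 0.22). Ace missed the threshold at 0.61 without IP replicate 1, 0.65 without IP replicate 2, 0.78 without Input replicate 1 and 0.69 without Input replicate 2. Anpep, an aminopeptidase of vessels and pericytes, fell by 2.92 (SE 0.57), Dpp4 fell by 2.16 (SE 0.67) and the insulin-degrading enzyme gene Ide fell by 0.31 (SE 0.11). Anpep had only 20, 5 and 9 counts in IP, against 95, 111 and 55 counts in Input. Dpp4 had 23, 13 and 3 counts in IP, the last at the detection floor, against 48, 77 and 52 counts in Input. Ide did not pass without IP replicate 1, where it stood at -0.23, or without any other single library but IP replicate 2. Dpp4 is named after its value was seen. Markers of vessels and meninges summed to 10.5 to 14.3 CPM in IP and 148 to 225 CPM in Input, and their part in the falls of Anpep and Dpp4 was not tested. Without Input replicate 2, 4 peptidase genes passed in place of 7.

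Most relatives of these ligands and receptors were barely detected. Of 17 genes, 11 were too low to test, with no library above 1.24 CPM, among them Tacr2, Sct, Gcg and Gpr160. Gpr160, which has been proposed as a receptor for CART peptide, had 0, 2 and 0 counts in IP and 20, 54 and 2 counts in Input. Of the 6 tested, 1 rose, 1 fell and 4 did not pass, where 26.0% of all genes tested rose and 27.9% fell. With so few genes, nothing is read from these counts. Cckar, the gene of the CCK-A receptor, had 10.6, 5.69 and 6.67 CPM in IP, against 2.04, 1.33 and 4.12 CPM in Input, and rose by 1.62 (SE 0.43, edgeR adjusted p 0.0123). Vipr1, the gene of the receptor VPAC1, had 0.430, 0.513 and 0.0700 CPM in IP, against 0.914, 3.16 and 2.25 CPM in Input, and fell by 2.64 (SE 0.72, edgeR adjusted p 0.0142). Vipr1 stood at -2.21 without Input replicate 2 and no longer passed. Across the single-library omissions, 4 relatives passed without IP replicate 2, without IP replicate 3 and without Input replicate 3, where 8 were tested, and 1 passed without Input replicate 2.

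Tac2, the neurokinin B gene, is named after its values were seen because IP libraries disagreed. It had 85.7, 119 and 5.74 CPM in IP, against 11.9, 6.30 and 17.4 CPM in Input. IP replicate 3 was below all 3 Input libraries, while IP replicates 1 and 2 were far above all of them. The log2 fold change of Tac2 was 2.56 (SE 0.93, edgeR adjusted p 0.0501), and 3.12 without IP replicate 3, where it passed. Relatives called higher numbered 2 in place of 1 in that fit, with DESeq2 and with a filter of CPM over 1 in 3 libraries.

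Genes that carry the receptors' signals inside the cell passed the test about as often as genes in general. Of 26 genes for G proteins, adenylyl cyclases, phospholipase C beta, cyclic AMP exchange factors and CREB factors, all tested, 6 rose and 8 fell, against 26.0% and 27.9% of all genes tested. Their median log2 fold change was 0.04, and -0.11 with upper-quartile scaling. Gnas, the stimulatory G protein gene used by the PACAP and VIP receptors, averaged 4361 ± 338 CPM in IP and 1915 ± 133 CPM in Input (SD, n = 3 each) and rose by 1.19 (SE 0.11, edgeR adjusted p 7.66e-05). Plcb4, a phospholipase C of the path used by tachykinin and cholecystokinin receptors, rose by 0.49 (SE 0.13), stood at 0.32 without IP replicate 2 and did not pass without Input replicate 3 (0.44) or with upper-quartile scaling (0.34). Its relative Plcb1 fell by 1.02 (SE 0.19). Adcy1, a calcium-stimulated adenylyl cyclase gene, fell by 1.18 (SE 0.15), Rapgef4, a cyclic AMP exchange factor gene, by 0.97 (SE 0.14), and Crebbp, which encodes the CREB-binding protein, by 0.41 (SE 0.11).

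Genes whose profile over the 6 libraries was closest to a member's were sought among the 9559 genes whose log2 CPM averaged 3 or more, by the distance between centred log2 CPM profiles, as a description. Lhx1, the LIM homeodomain relative of Lhx5, was nearest to Cartpt (distance 0.756), with 52.8, 68.7 and 54.3 CPM in IP, against 8.73, 7.06 and 3.31 CPM in Input. Lhx1os, its neighbour on the opposite strand, was next (0.776). The strand setting and annotation of the counts are not given, so the pair may share reads. Sfrp2, a secreted Wnt-binding protein gene, came next for Cartpt (0.922) and lay 0.853 from Adcyap1. Chrm5, the muscarinic receptor gene, was nearest to Adcyap1 (0.549), with 14.0, 20.8 and 6.93 CPM in IP, against 2.21, 2.27 and 1.95 CPM in Input. Grm2, a metabotropic glutamate receptor gene, lay 0.856 from Adcyap1.

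Distances were smaller for the genes with small differences. Profiles were centred but not scaled, so the distance itself favours flat genes, and sizes are not compared between members. Slc23a2, a vitamin C transporter gene, lay nearest to Adcyap1r1 (0.0880), followed by Ccpg1 and Cntn1, and Atp1b2, a sodium pump subunit gene, was nearest to Cck (0.243), followed by Lsamp and Lrrn1. Cd320 was nearest to Tacr1 (0.148), followed by Dok7 and Camk2g, and Hapln1, a matrix link protein gene, to Tacr3 (0.267), followed by Chrna3 and Serpinf1. Syt2, a synaptotagmin gene, was nearest to Cckbr (0.418), with 20.8 CPM in Input replicate 3 against 73.1 and 92.5 CPM in Input replicates 1 and 2, followed by Npnt and Lgr5. Scd3 was nearest to Vipr2 (0.262) and shared its high IP replicate 2, with 23.4 CPM against 9.99 and 8.77 CPM in IP replicates 1 and 3, followed by Id2 and Tmtc2. Mcc was nearest to Vip (0.374), followed by Slc29a3 and Fth1, and Sdf2l1 to Tac1 (0.513), followed by Pbx4 and Atg10. Of the 10 genes themselves, Cartpt and Adcyap1 lay 0.901 apart. Other pairs lay closer, the closest being Adcyap1r1 and Tacr1 (0.731), then Vipr2 and Cck (0.750).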

How the data were processed

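Each library has a deposited table of raw read counts by gene symbol, not normalized. The submitters' processing notes name STAR 2.0.0e, HTSeq and mm10. Annotation, strand and counting mode: not given in the sources. Summary lines and the entry of unknown genes (at most 1 count) stayed out of totals. IP files list 1.63% ± 0.0460 of their counts as ambiguous, against 9.35% ± 1.48 for Input files (SD over 3 libraries each). No member shares exon bases with another GENCODE M21 (GRCm38) gene; Gm20658 crosses Vipr2 outside its exons.

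Of 32531 entries, filterByExpr by group (minimum count 10, minimum total 15) kept 17197. Counts were scaled by TMM and fitted with edgeR 4.0.16 in R 4.3.3 (robust quasi-likelihood F test with group alone, two-sided, Benjamini-Hochberg over all genes, threshold 0.05). The SE is the log2 fold change divided by the square root of F. The test was tried on simulated counts. Exon length is the union of GENCODE exons. A further marker gene is not reported here and stayed out of the summed markers. The members, gene lists and tests were chosen with earlier results of these data known. Named list genes were the up to 4 most abundant that passed in a list's commoner direction and up to 2 in the other. For each member the 3 nearest profiles were named, leaving out symbols of the Gm, Rik, LOC or sequence record kind.

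Same-numbered IP and Input libraries carry 1 lane label, and the number was used to pair them. A shared lane does not show that they came from the same mouse or homogenate. Pearson's r of the deviations of same-numbered libraries from their group means was 0.155, 0.0744 and 0.0506 across genes. Between IP and Input libraries of unlike number it was -0.107 to 0.0207. Across genes, log2 CPM of replicates in a group gave Pearson's r of 0.971 to 0.985, and chi-square statistics per degree of freedom of 25.6 to 79.3 showed no copied library. Also tried were upper-quartile, RLE and library-total scaling, 2 other low-count filters, DESeq2 1.42.0, a replicate block, a threshold of 0.01 and leaving out libraries.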

Additional observations from a re-analysis of the deposited data

How the results depend on the processing

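Over 15 alternatives, 139 of 150 fold changes of the 10 genes kept their side of the threshold or, where none was passed, stayed short of it, and no called gene changed sign. With the replicate block, the members called lower numbered 2 in place of 1 and the processing genes called 17 in place of 10. Without both IP replicate 2 and Input replicate 3 these were 3 and 6, and family relatives called numbered 5 in place of 2. At a threshold of 0.01, 5 processing genes, 3 of 7 peptidases and 0 family relatives were called by edgeR. Of the relatives 4 had an unadjusted p under 0.05, 4 were called with DESeq2 and 4 with no low-count filter. Leaving out 1 library gave 1 to 2 members lower, 1 to 4 family relatives, 5 to 15 processing genes and 4 to 7 peptidases. Of 314 fold changes of named list genes and Tac2, 44 no longer passed and 3 newly passed. The named list genes were chosen because they passed with all libraries, so only Tac2 could newly pass. The 2 numbers are therefore not compared. The replicate block changed no other call among the 10 genes than those of Cck and Cckbr. Vip rests on 27 to 143 counts per library, which limits its precision, and such counts cover counting error only.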
